A study of Mus musculus with 35 samples.

Results

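The EGF family of growth factors and their ErbB receptors were followed as 10 genes, 6 ligands (Egf, Tgfa, Ereg, Btc, Hbegf and Nrg1) and 4 receptors (Egfr, Erbb2, Erbb3 and Erbb4), among 19937 genes measured in sorted mouse mammary cells. Each gene was represented by the probe set annotated to its symbol alone, and each of the 10 had 1 such probe set. Mating of the parous mice took place at an age of 42 days, lactation lasted 21 days and involution, in which the gland regresses once pups are weaned, 40 days. Nulliparous mice were virgins of the same age. No other treatment or allele is given in the labels for either history. The 4th mammary glands of 5 animals were pooled for each sort, which makes a replicate a pool of mice, and 35 samples were run on 1-colour Affymetrix arrays. The 6 subpopulations were stromal cells, total epithelial cells, basal CD49f-high, basal CD49f-low, luminal Sca1-positive and luminal Sca1-negative cells, where CD49f (integrin alpha 6) and Sca1 are surface proteins used for sorting. There were 3 samples per history and subpopulation, except 2 for parous basal CD49f-high cells. RNA came from 2000 cells per sample for the basal CD49f-high gate and from 10000 cells elsewhere, with amplification of the RNA before hybridization. Areg, a further ligand of the family, has no probe set of its own and was not used here.

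EGF family ligands are made as membrane-anchored precursors, are released by ADAM proteases and bind ErbB receptor tyrosine kinases, which then pair. Egf, Tgfa and Areg bind Egfr, while Btc, Hbegf and Ereg bind both Egfr and Erbb4, and the neuregulin Nrg1 binds Erbb3 and Erbb4. Erbb2 has no known ligand of its own and acts as a partner of the other receptors, and Erbb3 has very little kinase activity of its own. In the mammary gland, stromal Egfr is required for ductal growth, and Erbb4 for lobule formation and milk production.

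Promoter windows matched for 6 of the 10 genes, not for Ereg, Nrg1, Hbegf and Erbb3. Of the matched genes, those called between basal and luminal cells are shown, the receptors Egfr, Erbb2 and Erbb4 and the ligand Btc, so that the sequences stand beside the values given further on. The windows run from 250 bases before to 50 bases after the annotated start, in RefSeq's GRCm38.p6, on the strand of the gene. Capitals mark a match to 1 of 4 motifs searched on both strands, the GC box GGGCGG, the TATA box, searched as the letters TATAAA, the AP-1 site TGANTCA, and the box named by its letters, CCAAT.
Egfr, chr11:16751953-16752252, plus strand: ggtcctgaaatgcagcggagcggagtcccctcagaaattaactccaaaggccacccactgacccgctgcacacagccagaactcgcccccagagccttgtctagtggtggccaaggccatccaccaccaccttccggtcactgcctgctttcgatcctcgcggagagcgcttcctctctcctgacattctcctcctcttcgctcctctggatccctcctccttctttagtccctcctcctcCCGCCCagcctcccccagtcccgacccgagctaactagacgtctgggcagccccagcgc
Erbb2, chr11:98412234-98412533, plus strand: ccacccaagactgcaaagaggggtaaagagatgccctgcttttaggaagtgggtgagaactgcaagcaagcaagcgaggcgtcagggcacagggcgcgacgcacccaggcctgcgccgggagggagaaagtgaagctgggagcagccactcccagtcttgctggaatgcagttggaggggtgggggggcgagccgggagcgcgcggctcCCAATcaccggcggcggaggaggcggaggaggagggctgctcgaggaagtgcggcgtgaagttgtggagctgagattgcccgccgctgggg
Erbb4, chr1:69108010-69108309, minus strand: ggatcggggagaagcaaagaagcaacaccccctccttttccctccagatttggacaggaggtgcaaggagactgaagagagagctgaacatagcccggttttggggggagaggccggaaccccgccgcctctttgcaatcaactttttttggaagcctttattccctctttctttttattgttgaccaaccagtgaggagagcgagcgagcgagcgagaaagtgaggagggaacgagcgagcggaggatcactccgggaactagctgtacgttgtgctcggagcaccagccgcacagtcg
Btc, chr5:91402945-91403244, minus strand: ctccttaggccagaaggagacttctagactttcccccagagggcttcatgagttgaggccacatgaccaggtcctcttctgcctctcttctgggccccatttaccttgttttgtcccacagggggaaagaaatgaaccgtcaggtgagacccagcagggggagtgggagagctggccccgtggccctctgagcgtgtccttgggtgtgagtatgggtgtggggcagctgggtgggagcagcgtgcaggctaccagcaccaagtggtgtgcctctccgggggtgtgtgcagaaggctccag
The Egfr window held 1 GC box, read on the opposite strand, and the Erbb2 window held 1 CCAAT box. None of the 4 motifs matched in the Erbb4 and Btc windows. Over 32851 windows of the same length, 35.7% held a GC box, 13.6% a TATA box, 7.81% an AP-1 site and 37.4% a CCAAT box, and a match is a description of the letters only. GC content was 62.3% for Egfr, 66.0% for Erbb2, 55.3% for Erbb4 and 60.3% for Btc, against a median of 52.7% over all windows.

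All values are log2 expression of a probe set as deposited, and levels are compared between samples for a given gene, not between genes. Marker means set basal and total epithelial samples apart from luminal samples, and stromal samples apart from the rest. The gene levels of the surface proteins used for sorting are not given here. The mean of 10 basal and myoepithelial markers was 9.61 to 10.49 in basal and total epithelial samples, against 6.06 to 7.26 in luminal samples. The mean of 10 fibroblast markers was 10.30 to 10.65 in stromal samples and at most 7.55 elsewhere. Total epithelial cells lay close to basal CD49f-low cells, with 2.25% of genes differing between them. Between replicates, Pearson's r over all genes was 0.977 to 0.991 with 10000 cells and 0.963 to 0.978 with 2000 cells. All 10 members had at least 1 group mean at or above the median of the table, 5.86. The Egf level reached it in 1 of 12 groups, the Ereg level in 4, the Erbb4 level in 6 and the Nrg1 level in 7.

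**Figure D1:**
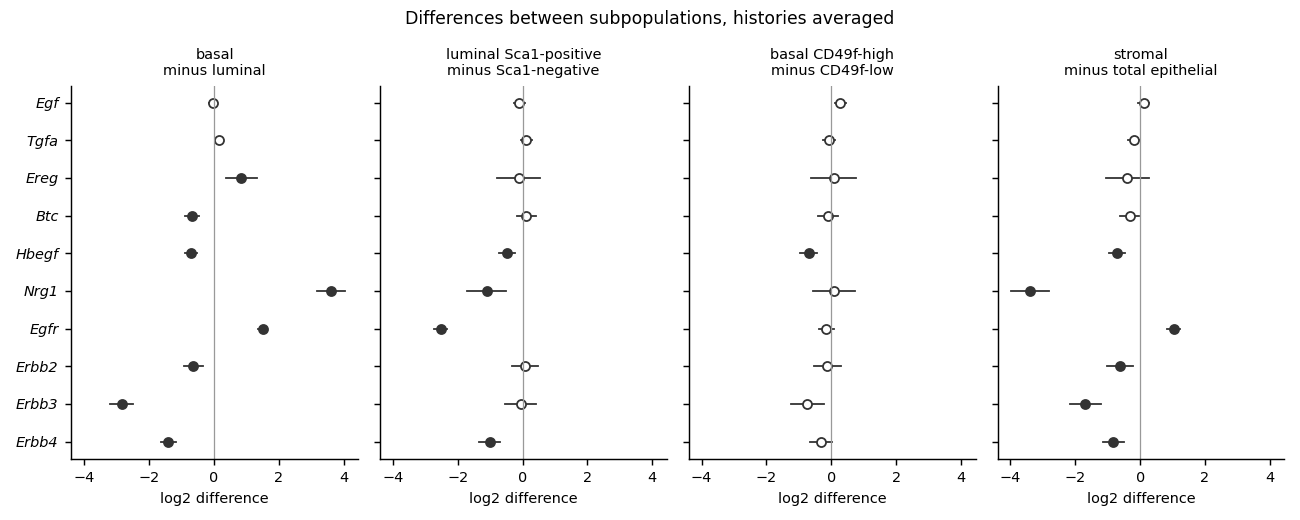
Differences between subpopulations for the 10 genes, as log2 differences with 95% confidence intervals, averaged over both histories. Filled points had an adjusted p under 0.05. Nrg1 and Egfr lay above 0 and Erbb3 and Erbb4 below 0 in basal minus luminal cells, and Egfr was the gene above 0 with a filled point in stromal minus total epithelial cells.

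The ligands and receptors divided between basal and luminal cells. Nrg1, Egfr and Ereg were higher in basal cells (CD49f-high and CD49f-low together, 11 samples), and Btc, Hbegf, Erbb2, Erbb3 and Erbb4 were lower there than in luminal cells (Sca1-positive and Sca1-negative together, 12 samples). Thus 8 of 10 genes passed the test (limma, adjusted p under 0.05 over all genes), where 35.0% of all genes did. Of all genes, 15.5% were higher and 19.5% lower in basal cells. The share of higher genes among those called was 44.3%, and 56.4% after a further quantile normalization. Egf and Tgfa did not pass, with differences of -0.03 (SE 0.06) and 0.15 (SE 0.06). These are bulk samples, in which fewer cells of a type and less RNA per cell cannot be told apart. Over all 15 pairs of subpopulations, 75 of 150 member comparisons were called, where 22.3% of the comparisons of all genes were, from 0 of 15 for Egf and 2 for Tgfa to 11 for Hbegf and 11 for Erbb3.

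Nrg1, the neuregulin ligand of Erbb3 and Erbb4, had the widest span of the ligands, with group means up to 5.10 log2 units apart. Its level was 8.27 to 10.19 in basal CD49f-high cells (median 8.90, n = 5) and 7.51 to 9.72 in basal CD49f-low cells (median 9.28, n = 6). In luminal Sca1-positive cells it was 4.35 to 5.97 (median 4.88, n = 6), and in luminal Sca1-negative cells 5.15 to 6.73 (median 6.06, n = 6). The basal and luminal samples did not overlap. The difference was 3.61 (SE 0.21), with an adjusted p of 2.4e-14. Stromal cells had 5.09 to 5.62 (median 5.44) and total epithelial cells 8.11 to 9.44 (median 8.76), a difference of -3.39 (SE 0.29, adjusted p = 1.2e-10). Ordered by mean, the levels ran from basal CD49f-high through basal CD49f-low and total epithelial cells, with no step called between these neighbours. A step of 2.76 (adjusted p = 2.9e-08) set total epithelial above luminal Sca1-negative cells, and stromal and luminal Sca1-positive cells followed without a further called step between neighbours. Within the luminal cells, Sca1-positive cells were lower than Sca1-negative cells by a difference of -1.11 (SE 0.29, adjusted p = 0.00713). Without the parous samples of replicate number 2 or 3 it was -0.96 (adjusted p = 0.0809 and 0.0761). The nulliparous basal CD49f-low sample of replicate 1 stood apart from its group, with 7.51 beside 9.46 and 9.72. Its mean of the 10 basal markers was 10.24, beside 10.10 and 10.13 in the other two samples of its group.

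Hbegf, a membrane-anchored ligand of Egfr and Erbb4, was higher in luminal cells. Its levels were 8.59 to 9.61 in basal CD49f-high cells (median 9.04, n = 5) and 9.42 to 10.19 in basal CD49f-low cells (median 9.68). They were 9.77 to 9.97 in luminal Sca1-positive cells (median 9.84) and 10.14 to 10.50 in luminal Sca1-negative cells (median 10.36). Luminal Sca1-negative samples were above all luminal Sca1-positive samples, and basal CD49f-low samples overlapped both luminal ranges. Basal cells were lower than luminal cells by a difference of -0.70 (SE 0.09, adjusted p = 1.6e-07). Stromal cells had 8.86 to 9.28 (median 9.11) and total epithelial cells 9.62 to 10.09 (median 9.80), with no overlap and a difference of -0.72 (SE 0.12, adjusted p = 2.2e-05). In order of mean level, the steps from luminal Sca1-negative to luminal Sca1-positive cells and from basal CD49f-low to stromal cells were called. The other neighbours in that order were not called different.

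Btc, which encodes betacellulin, a ligand of Egfr and Erbb4, was also higher in luminal cells. It had 5.71 to 6.05 in basal CD49f-high cells (median 5.86) and 5.74 to 6.34 in basal CD49f-low cells (median 5.84), against 6.11 to 7.25 in luminal Sca1-positive cells (median 6.64) and 6.11 to 7.18 in luminal Sca1-negative cells (median 6.40). The basal CD49f-high samples all lay below the luminal samples, and the basal CD49f-low samples overlapped them. The basal minus luminal difference was -0.68 (SE 0.11, adjusted p = 4.4e-06). No step between neighbours in the order of levels was called. Stromal cells had 5.61 to 5.96 and total epithelial cells 5.81 to 6.93, a difference of -0.32 (SE 0.14, adjusted p = 0.0949).

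Ereg, which encodes epiregulin, another ligand of Egfr and Erbb4, ran the other way, with a wide spread in basal cells. It had 4.72 to 8.19 in basal CD49f-high cells (median 5.22) and 4.81 to 6.63 in basal CD49f-low cells (median 5.79). It had 4.61 to 5.33 in luminal Sca1-positive cells (median 4.73) and 4.60 to 5.27 in luminal Sca1-negative cells (median 4.93). The basal and luminal ranges overlapped. Basal cells were higher by 0.84 (SE 0.23, adjusted p = 0.00503), and without the parous samples of replicate number 3 by 0.79 (adjusted p = 0.0517). The highest mean, 6.11, was that of total epithelial cells (5.26 to 7.54), and no step between neighbours was called.

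Egf and Tgfa, the founding ligands of Egfr, varied little. Their 12 group means spanned 0.43 and 0.54 log2 units. Tgfa was called in 2 pairs of subpopulations, lower in stromal than in basal CD49f-low cells (-0.26, SE 0.09, adjusted p = 0.0223) and higher in basal CD49f-low than in luminal Sca1-negative cells (0.25, SE 0.09, adjusted p = 0.0373).

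**Figure D2:**
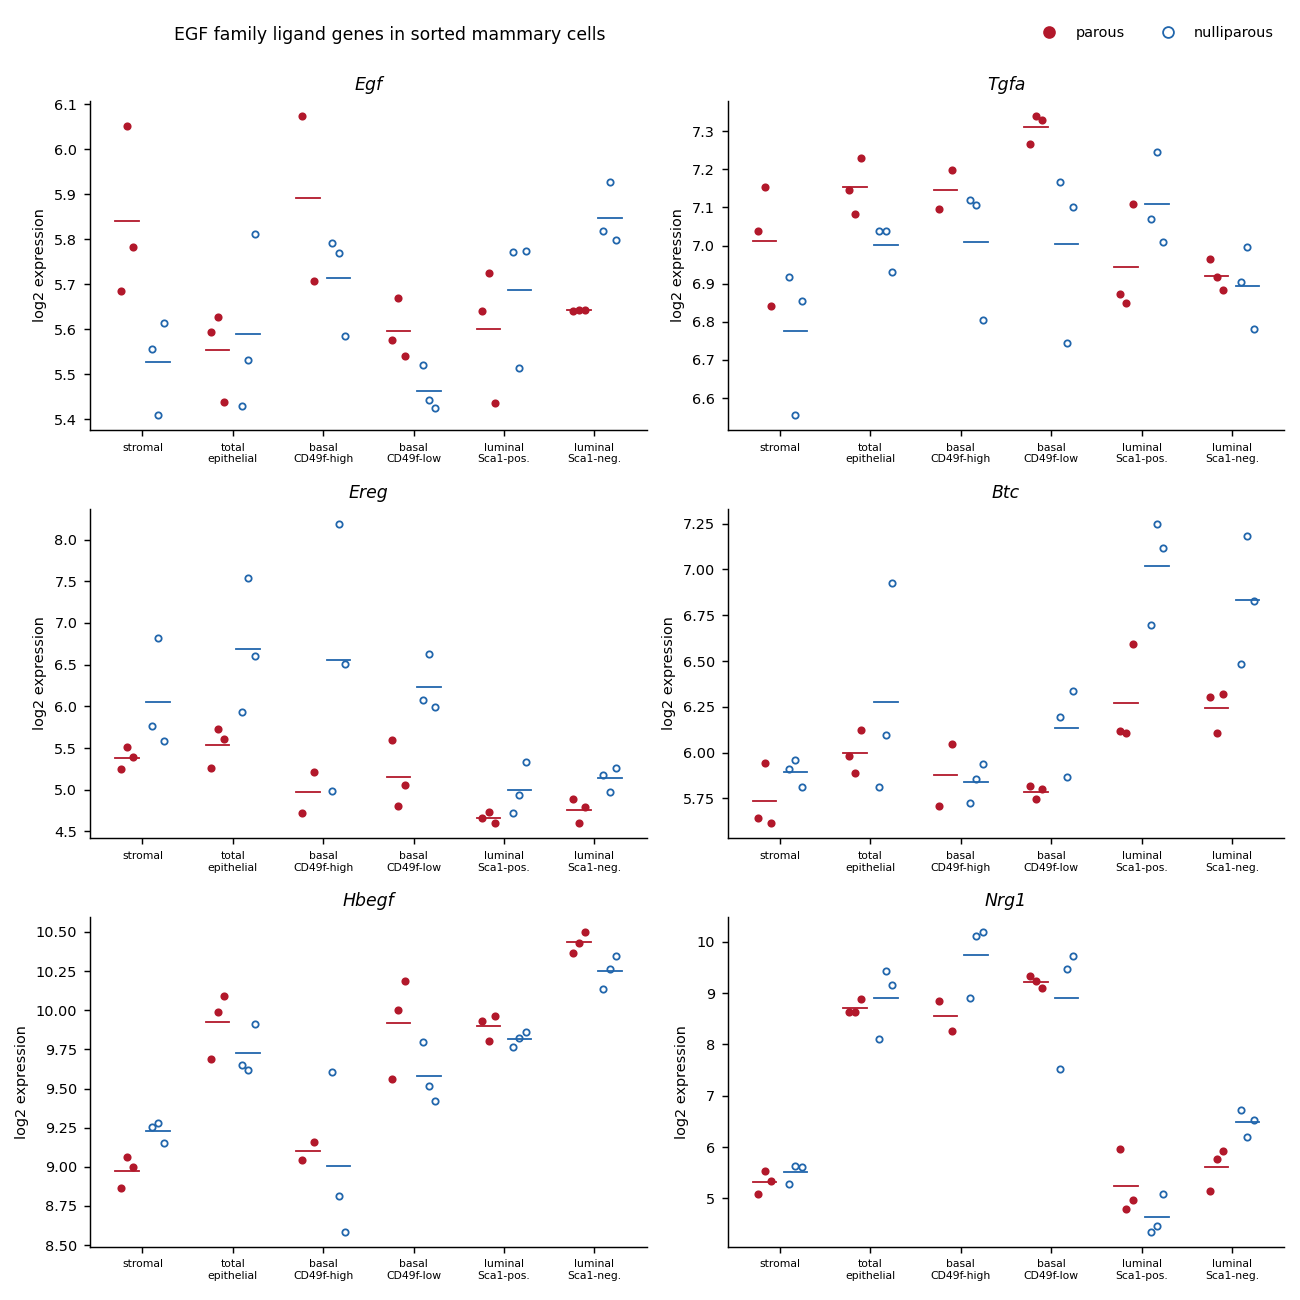
Log2 expression of the 6 ligand genes in each sample (points) and the group mean (bars), for 6 subpopulations with parous samples left of nulliparous samples; each panel has its own scale, which does not start at 0. Nrg1 was high in basal and total epithelial samples, and Ereg was highest in nulliparous basal CD49f-high replicate 2, at 8.19.

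Among the receptors, Egfr marked out luminal Sca1-positive cells as low and stromal cells as high. Its level was 9.55 to 9.80 in stromal cells (median 9.73) and 8.41 to 8.92 in total epithelial cells (median 8.73). It was 8.47 to 8.92 in basal CD49f-high cells (median 8.57) and 8.68 to 9.00 in basal CD49f-low cells (median 8.73). In luminal Sca1-positive cells it was 5.80 to 6.15 (median 5.94), and in luminal Sca1-negative cells 8.26 to 8.77 (median 8.48). All stromal samples were above, and all luminal Sca1-positive samples below, every other sample. Luminal Sca1-positive cells differed from Sca1-negative cells by -2.53 (SE 0.10, adjusted p = 1.4e-16), and stromal from total epithelial cells by 1.03 (SE 0.10, adjusted p = 2.0e-09). The basal minus luminal difference was 1.50 (SE 0.07, adjusted p = 4.5e-16). Set against luminal Sca1-negative cells alone, basal CD49f-low cells differed by 0.31 (SE 0.10, adjusted p = 0.0268) and basal CD49f-high cells by 0.16 (95% interval -0.06 to 0.38, adjusted p = 0.333). Against luminal Sca1-positive cells alone, the 2 differences were 2.84 and 2.69.

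Erbb3, the neuregulin receptor with little kinase activity, was higher in both luminal subpopulations. It had 5.27 to 5.85 in basal CD49f-high cells (median 5.80) and 6.09 to 6.98 in basal CD49f-low cells (median 6.28). It had 8.61 to 8.99 in luminal Sca1-positive cells (median 8.84) and 8.48 to 9.38 in luminal Sca1-negative cells (median 8.84). Basal and luminal samples did not overlap, and the difference was -2.84 (SE 0.17, adjusted p = 4.7e-14). Total epithelial cells lay between, at 7.13 to 8.30, with called steps to luminal Sca1-positive cells (-1.12, adjusted p = 6.3e-04) and to basal CD49f-low cells (1.32, adjusted p = 8.9e-04). Luminal Sca1-positive cells differed from Sca1-negative cells by -0.06 (95% interval -0.55 to 0.43, adjusted p = 0.921). Stromal cells spread from 4.99 to 7.34 and were lower than total epithelial cells by a difference of -1.69 (SE 0.24, adjusted p = 1.5e-06). The nulliparous stromal sample with 7.34 had a mean of 8.42 over 10 pan-luminal markers, and the one with 4.99 had a mean of 6.52. The part of luminal RNA in the stromal Erbb3 level was not tested.

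Erbb4, a receptor for neuregulins and for some Egfr ligands, was highest in luminal Sca1-negative cells. It had 5.58 to 6.81 in luminal Sca1-positive cells (median 6.40), against 6.89 to 7.62 in luminal Sca1-negative cells (median 7.38). The Sca1-positive samples were all below, with a difference of -1.01 (SE 0.16, adjusted p = 1.8e-05). Basal CD49f-high cells had 4.88 to 5.45 (median 5.24) and basal CD49f-low cells 5.12 to 6.10 (median 5.54). The basal minus luminal difference was -1.41 (SE 0.11, adjusted p = 2.8e-11), and the basal CD49f-low and luminal Sca1-positive ranges overlapped. Stromal cells had 4.90 to 5.63 and total epithelial cells 5.84 to 6.69, which did not overlap and differed by -0.83 (SE 0.16, adjusted p = 1.2e-04). Of the steps between neighbours in the order of levels, the one between the luminal subpopulations was called and the others were not.

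Erbb2, the partner receptor without a ligand, varied least among the receptors. It had 5.92 to 7.43 in basal CD49f-high cells (median 6.95) and 6.75 to 7.08 in basal CD49f-low cells (median 6.93). It had 7.29 to 7.85 in luminal Sca1-positive cells (median 7.51) and 6.82 to 7.83 in luminal Sca1-negative cells (median 7.58). The ranges overlapped, and the basal minus luminal difference was -0.63 (SE 0.14, adjusted p = 6.2e-04). Stromal cells had 6.06 to 6.63 and total epithelial cells 6.61 to 7.19, a difference of -0.62 (SE 0.19, adjusted p = 0.0151). That call was lost without the parous samples of replicate number 1 (adjusted p = 0.0733) or the nulliparous samples of number 3 (0.0714). No step between neighbours was called. A further probe set shared by Erbb2 and Sympk was not used.

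**Figure D3:**
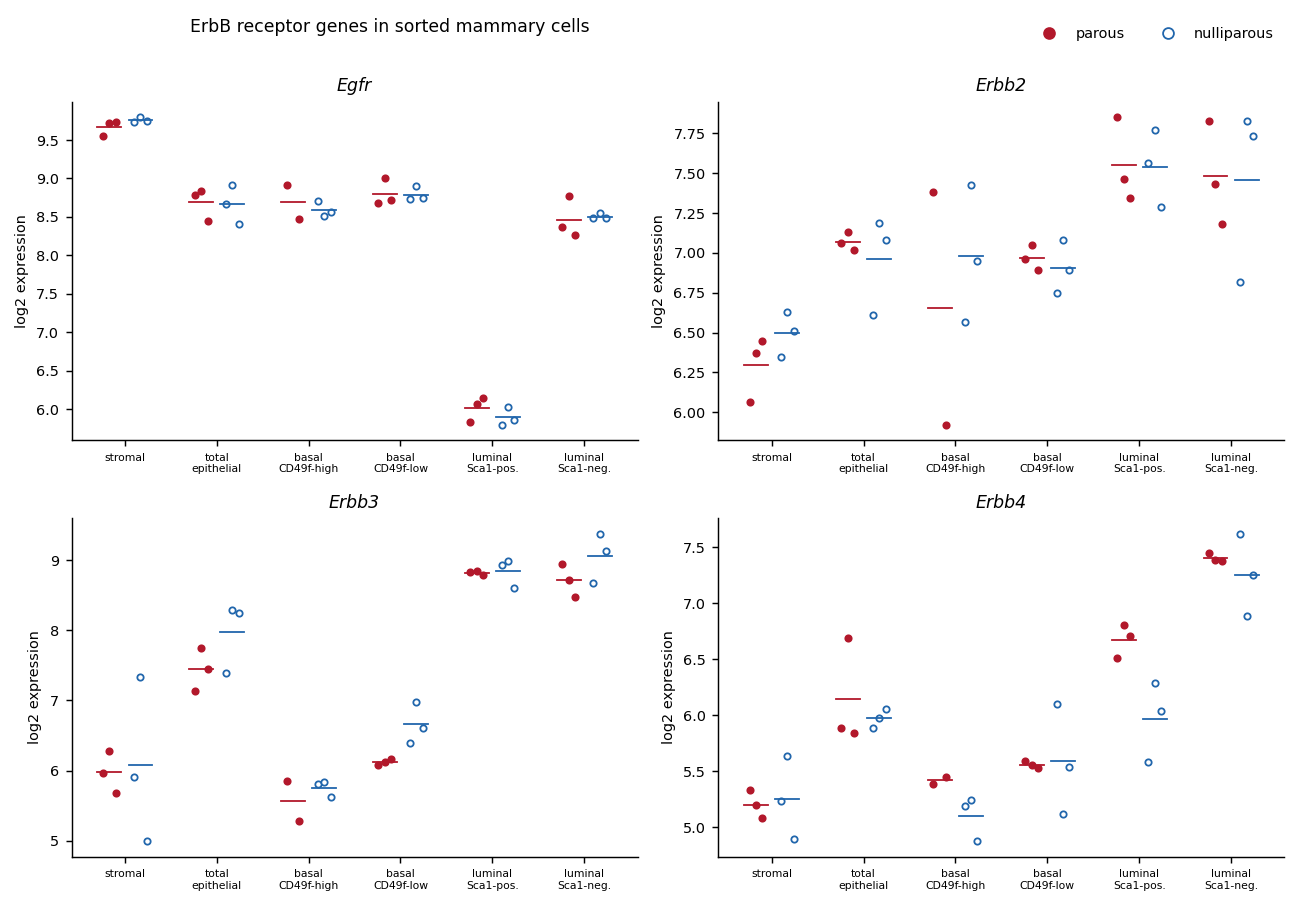
Log2 expression of the 4 receptor genes in each sample (points) and the group mean (bars), for 6 subpopulations with parous samples left of nulliparous samples; each panel has its own scale, which does not start at 0. Egfr was at 5.80 to 6.15 in luminal Sca1-positive samples and at 8.26 or more in all others, while every luminal sample was above every basal sample for Erbb3 but not for Erbb4.

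Between the luminal subpopulations, 4 of 10 genes passed, all lower in Sca1-positive than in Sca1-negative cells (Hbegf, Nrg1, Egfr and Erbb4), where 16.1% of all genes passed in either direction. The mean of 7 hormone-sensing luminal markers was 8.54 to 8.92 in Sca1-positive cells and 7.35 to 7.89 in Sca1-negative cells, and that of 8 luminal progenitor markers was 7.41 to 7.78 against 9.76 to 10.10. Between the basal subpopulations 1 of 10 passed, Hbegf, with a CD49f-high minus CD49f-low difference of -0.69 (SE 0.13, adjusted p = 0.00242), where 3.54% of all genes passed. With the basal samples fitted alone its adjusted p was 0.193, and the 2 subpopulations also differed in the number of cells per sample, so that cell number and subpopulation cannot be told apart. Between stromal and total epithelial cells 6 of 10 passed, Egfr higher and Hbegf, Nrg1, Erbb2, Erbb3 and Erbb4 lower in stromal cells, where 29.2% of all genes passed.

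The comparison of parous with nulliparous cells asked which genes of each subpopulation keep a difference after a completed reproductive cycle. Few of the ligands and receptors did at these sample numbers. In basal CD49f-low, luminal Sca1-positive, luminal Sca1-negative, stromal and total epithelial cells 0 of 10 passed in limma, where 0.968%, 0.607%, 1.00%, 0.597% and 0.446% of all genes passed. At an unadjusted p under 0.05, 2 of 10 passed in each of the first 3 of these subpopulations, and 1 of 10 in stromal and in total epithelial cells. In basal CD49f-high cells 1 of 10 passed, Ereg, where 9.06% of all genes passed, and 2 of 10 had an unadjusted p under 0.05. Over the 6 subpopulations that made 10 of 60 member comparisons at the unadjusted threshold, where 11.2% of the comparisons of all genes passed it. For the mean parity effect over the 4 sorted epithelial subpopulations 2 of 10 passed, Ereg and Btc, both lower in parous cells, where 6.20% of all genes passed and 3.49% were lower. At an unadjusted p under 0.05, 3 of 10 passed for that mean, and 17.9% of all genes did. The samples of the histories did not overlap for 5 of the 10 genes in basal CD49f-low cells, 5 in luminal Sca1-negative cells, 4 in stromal cells and 2 in each of the other 3 subpopulations. That made 20 of 60 member comparisons, where 17.2% of the comparisons of all genes did not overlap. The test for a difference of the parity effect among the 6 subpopulations was passed by 0 of 10, against 2.80% of all genes, and 1 gene, Egf, had an unadjusted p under 0.05 (0.038, adjusted p = 0.296), as did 15.1% of all genes.

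**Figure D4:**
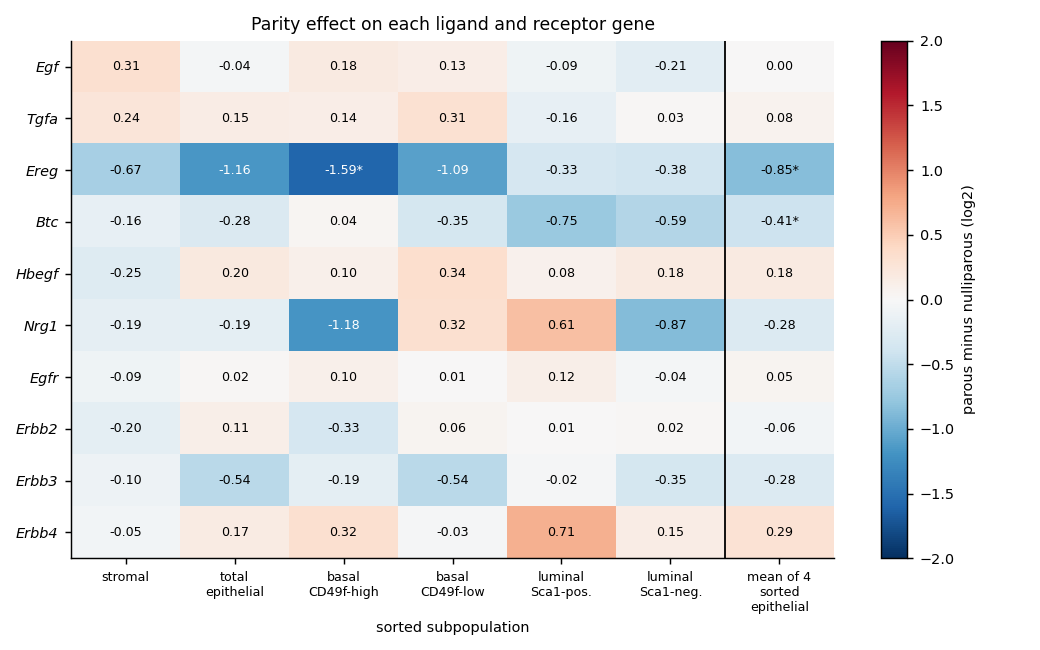
Parity effect (parous minus nulliparous, log2) of each gene in each subpopulation and as the mean over 4 sorted epithelial subpopulations. Red is higher and blue lower in parous cells, and an asterisk marks an adjusted p under 0.05. Ereg was below 0 in every subpopulation, from -0.33 to -1.59.

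Ereg was the ligand with the largest parity effects. In basal CD49f-high cells it had 4.72 and 5.22 in parous samples, against 4.98, 8.19 and 6.50 in nulliparous samples. The groups overlapped, since the nulliparous sample with 4.98 lay below a parous one. The difference was -1.59 (SE 0.51, adjusted p = 0.0454). The call was lost without parous replicate 2 (adjusted p = 0.24) or 3 (0.0805) and without nulliparous replicate 2 (0.327) or 3 (0.084), and without nulliparous replicate 2 the difference was -0.77. With array weights the adjusted p was 0.142, and with the CD49f-high samples fitted alone 0.559.

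Markers of several cell types also differed with parity in basal CD49f-high cells. The mean of the 8 luminal progenitor markers was 7.90 to 8.04 in parous samples, against 6.58 to 7.42 in nulliparous samples. Of these markers 7 had an effect above 0, and Ltf, the milk protein lactoferrin, was called (3.69, adjusted p = 2.1e-05). Csn3 had 2.03, and the others lay between -0.16 (Lif) and 0.71 (Cd14). Ltf was also above 0 in every other subpopulation, from 0.75 in luminal Sca1-positive to 1.90 in stromal cells, where it was called. The marker mean is thus not read here as progenitor cells. Of 10 pan-luminal markers 9 were above 0 and 0 were called. The mean of the 10 basal markers was 10.37 to 10.49 in parous samples, against 9.87 to 10.21 in nulliparous samples, with Oxtr (1.43), Myh11 (0.89) and Cnn1 (0.80) called higher. The mean of 10 fibroblast markers was 5.94 to 6.02 in parous samples, against 6.06 to 6.61 in nulliparous samples, with Fbln1 called lower (-0.95). Of the genes listed for adipocytes, macrophages and Schwann cells, Lep (2.25), Cd68 (1.20) and Sox10 (0.95) were called, all higher. Emcn of endothelium (-2.36) and Prom1 of hormone-sensing luminal cells (-1.04) were called lower. Each of these 5 genes was the 1 called of its list. The endothelial list had 4 markers above and 6 below 0, and the hormone-sensing list 2 above and 5 below. For adipocytes it was 5 above and 1 below, for macrophages and dendritic cells 8 and 2, and for Schwann cells 4 and 0. Sox10 was, however, higher in basal than in luminal cells (0.57) and lower in stromal than in total epithelial cells (-0.65). Lep was also lower in stromal than in total epithelial cells (-0.72), so neither gene is read here as its listed cell type. The part of these cell types in the Ereg difference was not tested.

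In basal CD49f-low cells Ereg had 5.59, 4.81 and 5.05 in parous samples, against 6.08, 6.63 and 5.996 in nulliparous samples, a difference of -1.09 (SE 0.45, adjusted p = 0.36). In total epithelial cells it had 5.26, 5.73 and 5.60 in parous samples, against 5.93, 7.54 and 6.61 in nulliparous samples, a difference of -1.16 (SE 0.45, adjusted p = 0.475). In stromal cells it had 5.25, 5.52 and 5.39 in parous samples, against 5.76, 6.81 and 5.59 in nulliparous samples, a difference of -0.67 (SE 0.45, adjusted p = 0.714). In none of these 3 subpopulations did the histories overlap, and in each of them the highest sample was nulliparous replicate 2. The luminal effects were -0.38 in Sca1-negative cells, without overlap, and -0.33 in Sca1-positive cells, with overlap. The sign was thus below 0 in 6 of 6 subpopulations, which held for 4.33% of all genes. Whether subpopulations with the same replicate number came from the same mice is not given in the labels. The mean effect over 4 sorted epithelial subpopulations was -0.85 (SE 0.23, adjusted p = 0.0255). Without the nulliparous samples of replicate number 2 it was -0.62 (adjusted p = 0.0259), and without the parous samples of number 2 it was -0.73 (adjusted p = 0.194). The call was also lost without parous number 1 (0.0593), parous number 3 (0.0966), nulliparous number 3 (0.113), parous basal CD49f-high replicate 2 alone (0.0613) or nulliparous basal CD49f-low replicate 2 alone (0.0514). Beside this, the mean of 10 fibroblast markers was 6.25 to 6.62 in parous and 6.84 to 7.27 in nulliparous basal CD49f-low samples. In the mean parity effect 9 of these 10 markers were below 0, with Dcn (-0.88) and Fbln1 (-0.45) called, and 9 of 10 basal markers were above 0, with 5 called. Of 8 luminal progenitor markers 5 were above 0 in it, with Ltf called higher (1.85) and Aldh1a3 (-0.48) and Lif (-0.36) called lower. The part of these cells in the Ereg difference, and in the Btc difference given next, was not tested.

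Btc separated the histories in both luminal subpopulations, with each parous sample below each nulliparous one. In luminal Sca1-positive cells it had 6.12, 6.11 and 6.59 in parous samples, against 6.69, 7.25 and 7.12 in nulliparous samples, a difference of -0.75 (SE 0.20, adjusted p = 0.113). In luminal Sca1-negative cells it had 6.30, 6.11 and 6.32 in parous samples, against 6.48, 7.18 and 6.83 in nulliparous samples, a difference of -0.59 (SE 0.20, adjusted p = 0.205). Neither of the differences passed the test. In basal CD49f-low cells the difference was -0.35 (SE 0.20), also without overlap, and in basal CD49f-high cells it was 0.04 (SE 0.23), with overlap. The mean over the 4 sorted epithelial subpopulations was -0.41 (SE 0.11, adjusted p = 0.0151). It lost its call without the parous samples of number 1 (adjusted p = 0.071) or 2 (0.175) or the nulliparous samples of number 2 (0.0853).

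Nrg1 showed its larger parity differences in basal CD49f-high and luminal Sca1-negative cells, neither of which passed. In basal CD49f-high cells it had 8.84 and 8.27 in parous samples, against 8.90, 10.11 and 10.19 in nulliparous samples, a difference of -1.18 (SE 0.46, adjusted p = 0.116), which was -1.60 (adjusted p = 0.027) without nulliparous replicate 1. In luminal Sca1-negative cells it had 5.15, 5.76 and 5.92 in parous samples, against 6.73, 6.19 and 6.53 in nulliparous samples, a difference of -0.87 (SE 0.41, adjusted p = 0.423). Neither pair of groups overlapped. In the same luminal samples the mean of the 10 basal markers was 7.09 to 7.26 in parous cells and 6.57 to 6.85 in nulliparous cells. The part of basal cells in the Nrg1 difference was not tested. In basal CD49f-low cells the Nrg1 difference was 0.32 (SE 0.41), and it was -0.37 without nulliparous replicate 1. In luminal Sca1-positive cells it went the other way, 0.61, with overlap and means of 5.24 in parous and 4.63 in nulliparous samples.

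Egf, Tgfa and Hbegf had parity effects between -0.25 and 0.34 in all 6 subpopulations, with 0 called. Tgfa in basal CD49f-low cells had 7.27, 7.34 and 7.33 in parous samples, against 7.17, 6.74 and 7.10 in nulliparous samples, a difference of 0.31 (SE 0.12, adjusted p = 0.33). Hbegf did not overlap between histories in stromal cells, with 8.86, 9.07 and 9.00 in parous samples, against 9.25, 9.28 and 9.15 in nulliparous samples. Its difference there was -0.25 (SE 0.17, adjusted p = 0.716).

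Of the receptors, Egfr was the one with the narrowest bounds on a parity effect. Its effects were -0.09 to 0.12 over the 6 subpopulations, and their 95% intervals lay within -0.39 to 0.43. Erbb4 in luminal Sca1-positive cells had 6.51, 6.81 and 6.71 in parous samples, against 5.58, 6.29 and 6.03 in nulliparous samples. The histories did not overlap, and the difference of 0.71 (SE 0.22, adjusted p = 0.265) did not pass. In luminal Sca1-negative cells the Erbb4 difference was 0.15 (95% interval -0.31 to 0.60). In basal CD49f-high cells it had 5.39 and 5.45 in parous samples, against 5.19, 5.24 and 4.88 in nulliparous samples, a difference of 0.32 (SE 0.25, adjusted p = 0.507). Erbb3 was below 0 in 6 of 6 subpopulations, from -0.02 to -0.54, with 0 called. In basal CD49f-low cells it had 6.09, 6.12 and 6.16 in parous samples, against 6.39, 6.98 and 6.61 in nulliparous samples, a difference of -0.54 (SE 0.34, adjusted p = 0.63). Erbb2 effects were -0.33 to 0.11, with intervals within -0.95 to 0.67. In parous basal CD49f-high cells its 2 samples were 7.38 and 5.92, on opposite sides of the nulliparous mean of 6.98. Without replicate 2 the difference was -1.06, which rests on the 1 parous sample left.

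The other genes of the pathway were taken from lists made from general knowledge. The alternative settings were not examined for these genes. Their parity effects in basal CD49f-high cells compare 2 parous with 3 nulliparous samples of 2000 cells, and 9.06% of all genes passed there. Of 4 further ErbB ligands measured, Epgn and Nrg4 passed in basal minus luminal cells, both lower in basal cells, where 35.0% of all genes passed. Epgn, which encodes the Egfr ligand epigen, had a difference of -2.36 (SE 0.20, adjusted p = 6.3e-11) and was higher in luminal Sca1-positive than in Sca1-negative cells by 1.63 (SE 0.27, adjusted p = 5.1e-05). Epgn was lower in stromal than in total epithelial cells (-2.50) and had a mean parity effect of -0.84 (SE 0.20, adjusted p = 0.00837). Nrg4, a ligand of Erbb4, had a basal minus luminal difference of -0.25 and was higher in Sca1-positive than in Sca1-negative cells by 0.56. In the mouse annotation Epgn, Ereg, Areg and Btc are consecutive protein-coding genes on chromosome 5. Among them, Epgn and Btc were lower and Ereg higher in basal than in luminal cells. The mean parity effects of Epgn, Ereg and Btc were all below 0 and called, where 3.49% of all genes were called lower. The Ereg and Btc calls were lost under the alternatives given above. Areg had no probe set of its own, and a shared cause was not tested.

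Of 6 ligand-releasing proteases and their cofactors, 4 were lower and 1 higher in basal than in luminal cells, where 35.0% of all genes passed. Adam10 differed by -1.52 (SE 0.10, adjusted p = 2.4e-13), and Adam17, the main protease for several Egfr ligands, by -0.31 (SE 0.07, adjusted p = 7.8e-04). Rhbdf2, a cofactor of Adam17, differed by -0.40, Adam9 by -0.28 and Adam12 by 0.35. Adam10 was higher in luminal Sca1-positive than in Sca1-negative cells by 1.30 (SE 0.14, adjusted p = 2.6e-08), Adam9 was higher by 0.54, and Rhbdf1 had a difference of -0.36. Stromal cells were above total epithelial cells for Adam12 (1.87), Adam17 (0.68) and Adam9 (0.53) and below them for Adam10 (-1.28), Rhbdf2 (-0.45) and Rhbdf1 (-0.30), all called. Adam9 was also lower in basal CD49f-high than in CD49f-low cells (-0.37, adjusted p = 0.0329). In parous basal CD49f-low cells Adam17 had 7.65 to 8.07, against 8.29 to 8.59 in nulliparous cells, a difference of -0.56 (SE 0.14, adjusted p = 0.0459). Its mean parity effect was -0.34 (SE 0.07, adjusted p = 0.00271). In parous basal CD49f-high cells Adam9 had 7.25 and 7.33, against 7.63 to 8.05 in nulliparous cells, a difference of -0.59 (SE 0.15, adjusted p = 0.00995).

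Of 12 genes listed as inhibitors of ErbB signalling, 7 were higher and 1 lower in basal than in luminal cells, where 35.0% of all genes passed. The median difference over the list was 0.35, beside 0.00 over all genes. The Lrig3 difference was 1.54 (SE 0.10), that of Spred1 1.28 (SE 0.09), that of Spred2 1.09 (SE 0.11) and that of Spry2 1.03 (SE 0.13), while Rnf41, a ubiquitin ligase for Erbb3, was lower (-0.30). Spry and Spred proteins restrain the ERK cascade. Lrig3 was listed as a relative of Lrig1, which lowers ErbB receptor levels. Whether Lrig3 itself does so is not shown here, and it is not read as an inhibitor. Between luminal subpopulations 4 of the 12 passed, all lower in Sca1-positive cells, where 16.1% of all genes passed in either direction. Spry2 had 6.24 to 7.54 in Sca1-positive cells against 7.83 to 8.73 in Sca1-negative cells, a difference of -1.47 (SE 0.18, adjusted p = 5.4e-07). The others were Lrig3 (-0.66), Lrig1 (-0.41) and Errfi1 (-0.33). In parous basal CD49f-high cells Lrig1 had 6.62 and 6.82, against 7.38 to 7.58 in nulliparous cells (-0.77, SE 0.17, adjusted p = 0.00428). Cblb, a ubiquitin ligase, was also lower there (-1.15, SE 0.25, adjusted p = 0.00385). Between basal CD49f-high and CD49f-low cells Spred2 was higher (0.55) and Lrig1 lower (-0.73). In stromal minus total epithelial cells 4 of the 12 were higher, Cblb (1.06), Spry2 (0.86), Spry4 (0.58) and Errfi1 (0.40), and 4 lower, Spred2 (-0.75), Cbl (-0.46), Rnf41 (-0.42) and Lrig1 (-0.35). Of all genes, 29.2% passed there. Lrig1 was the inhibitor that passed the test for a difference of the parity effect among subpopulations.

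Of 12 ERK pathway target genes, 6 were higher and 2 lower in basal than in luminal cells, where 35.0% of all genes passed. Etv5 differed by 1.78 (SE 0.13) and Dusp6, an ERK phosphatase, by 1.41 (SE 0.10), and Myc (0.85) and Egr1 (0.55) were higher as well, while Dusp4 differed by -1.06 (SE 0.10) and Ccnd1 by -0.91 (SE 0.11). Between the luminal subpopulations 6 were lower and 2 higher in Sca1-positive cells, where 16.1% of all genes passed. The list median was -0.54, beside -0.01 over all genes. Dusp6 had 7.72 to 8.55 in Sca1-positive cells, against 9.12 to 9.68 in Sca1-negative cells, a difference of -1.16 (SE 0.14, adjusted p = 3.0e-07). Phlda1 (-1.12), Dusp5 (-0.96) and Fosl1 (-0.84) were lower as well, and Dusp4 (0.92) and Fos (0.48) were higher. In stromal minus total epithelial cells 2 were higher, Egr1 (0.69) and Phlda1 (0.42), and 7 lower, led by Dusp6 (-2.16), Etv5 (-1.08), Dusp5 (-0.68) and Dusp4 (-0.65). Of all genes, 29.2% passed there. Luminal Sca1-positive cells, in which the Egfr level was low, thus had 6 targets and 4 listed inhibitors lower and 2 targets higher than Sca1-negative cells. Stromal cells, in which the Egfr level was high, had 7 targets lower and 2 higher than total epithelial cells. No relation between the levels was tested.

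With parity, Dusp6 in stromal cells had 6.86 to 7.88 in parous samples, against 8.17 to 8.45 in nulliparous samples, a difference of -1.09 (SE 0.20, adjusted p = 0.00395). In basal CD49f-high cells Fos (1.74, SE 0.24, adjusted p = 3.3e-05) and Egr1 (0.95, SE 0.18, adjusted p = 9.4e-04) were higher and Fosl1 (-1.18, SE 0.23, adjusted p = 0.00137) was lower in parous samples. In that comparison 9.06% of all genes passed. In luminal Sca1-negative cells Myc was higher in parous samples (0.60, adjusted p = 0.0253). The mean parity effects of Fos (0.74), Egr1 (0.46) and Myc (0.29) were called, where 6.20% of all genes were. Dusp6, Egr1, Fos and Fosl1 passed the test for a difference of the parity effect among subpopulations, as did 2.80% of all genes. Of 10 adaptors and effectors, Grb7 (-1.14) and Gab2 (-0.87) were lower in basal than in luminal cells and Pik3r1 (0.55), Sos1 (0.38), Grb2 (0.20) and Gab1 (0.19) were higher, where 35.0% of all genes passed. Pik3r1, the regulatory subunit of PI3 kinase, had a mean parity effect of 0.60 (SE 0.08, adjusted p = 2.7e-05), with called effects of 0.79 in basal CD49f-high and 0.74 in luminal Sca1-negative cells. Between the luminal subpopulations 4 adaptors and effectors were lower in Sca1-positive cells, Gab1 (-1.04), Gab2 (-0.85), Pik3ca (-0.41) and Erbin (-0.31), where 16.1% of all genes passed. In stromal minus total epithelial cells, where 29.2% of all genes passed, Gab2 was higher (1.81) and 6 were lower, led by Gab1 (-1.10), Erbin (-0.87), Grb7 (-0.67) and Pik3r1 (-0.50).

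**Figure D5:**
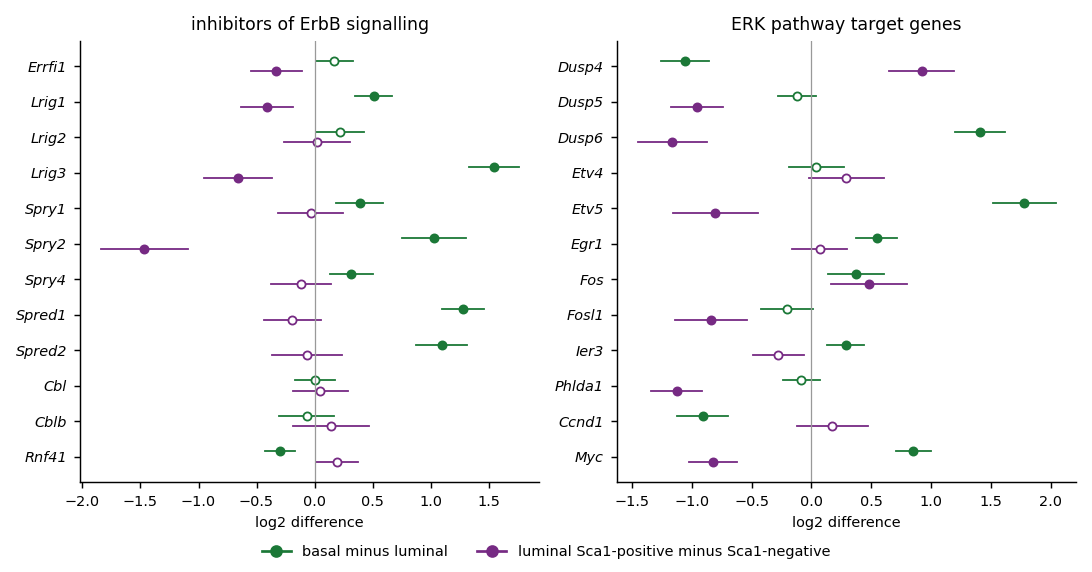
Log2 differences with 95% confidence intervals for 12 genes listed as inhibitors of ErbB signalling and 12 ERK pathway target genes, basal minus luminal (green) and luminal Sca1-positive minus Sca1-negative (purple). Filled points had an adjusted p under 0.05. Lrig3, Spry2 and Dusp6 were above 0 in the first comparison and below 0 in the second.

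Genes with a pattern most like that of each member were taken by Pearson's r over the 12 group means, among 4977 genes whose means spanned at least 1 log2 unit. The means share arrays and subpopulations, so r is a description. For Nrg1 they were Lama3 (r = 0.979), Krt17 (0.975) and Arc (0.973). For Egfr they were Atrnl1 (0.974), Rhoq (0.971) and Cryab (0.969), for Erbb3 Tuft1 (0.990), Clcn3 (0.987) and Cldn7 (0.985), and for Erbb4 Zfp750 (0.978), Arhgef38 (0.975) and Dock8 (0.959). For Erbb2 they were Rbm47 (0.973), Hcar2 (0.970) and Polb (0.967). Among the ligands, Hbegf was most like Fam107b (0.959), Bend7 (0.938) and Gmds (0.929), Btc most like Med24 (0.939), Ift88 (0.938) and Gprc5a (0.935), and Ereg most like Fbn2 (0.920), Robo2 (0.913) and Asxl3 (0.904). Among the members themselves, r was 0.87 between Erbb3 and Erbb4, 0.86 between Erbb3 and Erbb2, 0.90 between Hbegf and Erbb4, and -0.78 between Egfr and Erbb2.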

How the data were processed

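Gene expression in sorted mammary cells of mice was read from 35 1-colour Affymetrix arrays, 1 per sample, in 12 groups of 6 subpopulations and 2 histories taken from the labels. Per the labels' protocols, RNA of 2000 or 10000 cells was amplified and labelled with biotin. Values deposited for each probe set range over 1.74 to 13.28, with column medians of 5.81 to 5.92, and were taken as log2 expression. The affy package is named in the submitters' processing notes, while its version, the normalization and a genome build were not given in the sources used here. Precision is limited by the number of arrays. A replicate of parous basal CD49f-high cells was left out by the submitters for poor hybridization, per the labels.

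The table had 34760 probe sets, of which an annotation table gave 21640 a single gene symbol, 1321 several and 11799 none. Those with several or none were left out, and 954 genes had several probe sets, of which that with the highest mean was kept, which left 19937 genes. A single limma model of the 12 group means was fitted to all samples, with limma 3.58.1 in R 4.3.3 (lmFit, eBayes with trend), Benjamini-Hochberg adjustment ran over all genes in each comparison, and a gene was called at an adjusted p under 0.05. Standard errors and 95% intervals are those of the moderated fit. P-values measure the spread between samples within groups, each a pool of mice, with all 35 samples taken as independent. The mean parity effects use 11 parous and 12 nulliparous samples, though there are only 3 replicate numbers per history. If samples with the same number came from the same mice, they are not independent. The difference of the parity effect among subpopulations was tested with a moderated F test. The fit was tested on simulated data in which all samples were independent, so that test cannot address samples that share mice.

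The members and gene lists were chosen with earlier results of these data known. All 10 members are named, and of each further list up to 4 called genes per direction with the largest change in each comparison described. Alternatives were eBayes without a trend, array weights, a further quantile normalization, dim probe sets left out, probe sets averaged per gene, the replicate number as a fixed block, pools as a random block, the compared groups alone, and leaving out single samples or all samples of a history and replicate number.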

Additional observations from a re-analysis of the deposited data

Results flagged for a closer look

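Egf and Hbegf had parity effects in which every parous sample lay on opposite sides of the nulliparous samples in different subpopulations. For Egf the difference was 0.31 in stromal cells, with 5.69, 6.05 and 5.78 in parous samples, against 5.56, 5.41 and 5.61 in nulliparous samples. It was 0.13 in basal CD49f-low cells and -0.21 in luminal Sca1-negative cells, where parous samples had 5.64 each and nulliparous samples had 5.82, 5.93 and 5.80. All of these Egf levels lay near the median of the table, 5.86. For Hbegf the difference was 0.18 in luminal Sca1-negative cells, with 10.37, 10.43 and 10.50 in parous samples, against 10.14, 10.26 and 10.35 in nulliparous samples, and -0.25 in stromal cells. None of these differences passed the test in its subpopulation. The difference between these subpopulations was not tested pair by pair, and over all 6 subpopulations the test was not passed by Egf (adjusted p = 0.296) or Hbegf (adjusted p = 0.653).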

How the results depend on the processing

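Of 120 member results, 22 were called, and 15 of these kept their call and direction under every alternative run. The other 7 lost it under at least 1, all named with the report's values, and 0 reversed while called. Of 98 results not called, 13 were called under at least 1 alternative and 33 changed sign. These member results cover the parity effects, their mean, the F test, basal minus luminal, stromal minus total epithelial, Sca1 and CD49f. In the remaining pairs of subpopulations, calls of single members, such as those of Tgfa, were not examined under the alternatives. With array weights 1 member was called for parity in luminal Sca1-negative cells (Btc, adjusted p = 0.0396), 1 in basal CD49f-low cells (Tgfa, 0.0432) and 0 in basal CD49f-high cells. With only the compared groups fitted, 0 were called for parity in basal CD49f-high cells and 0 between the basal subpopulations. Without parous pool 1, 2 or 3, or nulliparous pool 2 or 3 (the samples of a history and replicate number), 0 were called for parity in basal CD49f-high cells. For the mean parity effect, 0, 0, 1, 1 and 1 were called in these settings. Without nulliparous pool 1, 1 was called for parity in total epithelial cells (Ereg, 0.0453), 1 in luminal Sca1-positive cells (Btc, 0.0271), 2 in basal CD49f-high cells and 5 for the mean parity effect. Tgfa was called higher in basal than in luminal cells without the trend (0.048), after quantile normalization (0.00889) and with dim probe sets left out (0.042). The cause was not tested.

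With single samples left out, members called ranged over 70 to 77 for the 15 pairs, 8 to 9 for basal minus luminal, 6 to 7 for stromal minus total epithelial, 4 to 4 for Sca1, 1 to 2 for CD49f, 1 to 3 for the mean parity effect, 0 to 2 for parity in basal CD49f-high cells, 0 to 0 for parity in each remaining subpopulation, and 0 to 0 in the F test.

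Samples with the same replicate number and history correlated in their deviations from the group mean at 0.01 to 0.34 (85 pairs, 43 above 0.1), those with different numbers at -0.28 to 0.07 (170 pairs). All 35 samples correlated best with their own number, a hint from the data and not the design. The same number in parous and nulliparous cells gave -0.05 to 0.23 (17 pairs). With the replicate number as a block, 2 members were called for parity in basal CD49f-high cells (Ereg, and Nrg1 at 0.0436) and 2 between the basal subpopulations (Hbegf, and Erbb3 at 0.0373). With pools as a random block 2 were called between the basal subpopulations (Hbegf, and Egf at 0.0493). In that setting the mean parity effects of Ereg (adjusted p = 0.0458) and Btc (0.0316) kept their calls.

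Over all genes, the count called for parity in basal CD49f-high cells was 1806, and 0 to 2342 under the alternatives. For the other parity effects the counts were 119 (18 to 159) in stromal, 89 (25 to 231) in total epithelial, 200 (81 to 614) in luminal Sca1-negative, 121 (62 to 194) in luminal Sca1-positive and 193 (62 to 544) in basal CD49f-low cells. They were 1237 (664 to 1829) for the mean parity effect, 558 (168 to 936) for the F test and 705 (28 to 1031) between basal subpopulations. After quantile normalization, 55.7% of genes called for parity in luminal Sca1-negative cells were higher, against 66.0% as deposited.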
